A study of Mus musculus with 2 samples.

Results

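Peroxisome proliferator-activated receptors (PPARs) are nuclear receptors that bind fatty acids and switch on genes of lipid use during a fast. The 7 genes described here are fasting-response PPAR targets that do not encode enzymes of fatty acid oxidation, namely Angptl4, Creb3l3, Vnn1, Ucp2, Fgf21, Aqp7 and Lpl. They were taken by symbol from a list drawn up with earlier results of these data known, and all 7 were found among the 45706 gene IDs of the count files. Of the 7, 4 had enough counts to be called measured (Angptl4, Creb3l3, Vnn1 and Ucp2) and 3 did not (Fgf21, Aqp7 and Lpl). The RNA came from GFP-high intestinal stem cells of mice of the strain Lgr5-EGFP-IRES-creERT2, in which the locus of the stem cell gene Lgr5 drives the fluorescent protein and an inducible Cre, so that both libraries carry these alleles. The fed library came from mice of 4 months on standard chow ad libitum, and the fasted library from mice of the same age under fasting. The labels name neither the length of the fast nor how many mice were pooled in a library, and no other agent. With 1 library per group there is no replicate check and no test, and every difference below describes these 2 libraries.

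The proteins of the 7 genes act at different points of the fasting response. Angptl4 is a secreted inhibitor of lipoprotein lipase, the enzyme encoded by Lpl, which releases fatty acids from circulating triglyceride. Creb3l3 (CREBH) is a transcription factor held in the endoplasmic reticulum membrane, made in liver and small intestine, that is freed by cleavage in the Golgi and acts on apolipoprotein genes. Vnn1 is a membrane-anchored pantetheinase that splits pantetheine into pantothenic acid and cysteamine, Ucp2 is a carrier of the inner mitochondrial membrane, Aqp7 is a channel for water and glycerol, and Fgf21 is a fasting hormone made chiefly by the liver.

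The fed library held 6985316 counts and the fasted library 5020056, and levels are given as counts per 1000000 (CPM), where a single read weighs 0.143 CPM in the former and 0.199 CPM in the latter. Stem cell markers were abundant in both libraries, with 3381 fed and 1709 fasted counts of Lgr5, and all 14 fixed markers were measured. Absorptive enterocyte markers were higher in the fasted library in 12 of 19 cases (median log2 ratio 1.05), goblet cell markers in 4 of 9 (median 0.56), and stem cell markers in 0 of 14 (median -0.26). In sorted cells measured in bulk, fewer cells of a type and less RNA per cell cannot be told apart. Ratios are fasted over fed, scaled by the median of ratios, with 95% intervals for counting error alone. A gene is called higher or lower where its ratio is at least 2-fold and the interval excludes 1. Across 12026 measured genes, 302 (2.51%) were higher, 230 (1.91%) were lower and the median log2 ratio was -0.02.

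The bases before the start sites of Creb3l3, Ucp2 and Fgf21 are shown, from RefSeq on the build GRCm38.p6. Of the 7 genes 4 matched an entry of the promoter table, with 6 windows of 250 bases before to 50 after a start (Creb3l3 and Aqp7 have 2 starts each). Angptl4, Vnn1 and Lpl had no entry, so their promoters were not searched. The sequences below run 5′ to 3′ on the strand of the gene, and bases that GENCODE assigns to exons of protein-coding transcripts of the gene are left out. Capitals mark a match to the direct repeat bound by PPAR with its partner RXR, which is AGGTCA, any 1 base and AGGTCA again, with up to 2 mismatches at its 12 fixed positions.
Creb3l3, upstream start, chr10:81098875-81099122, minus strand: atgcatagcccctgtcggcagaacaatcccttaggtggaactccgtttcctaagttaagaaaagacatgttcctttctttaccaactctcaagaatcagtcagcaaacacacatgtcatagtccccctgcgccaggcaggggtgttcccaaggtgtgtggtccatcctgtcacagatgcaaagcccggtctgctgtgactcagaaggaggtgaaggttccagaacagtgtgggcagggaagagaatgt
Creb3l3, intron before the downstream start, chr10:81092658-81092806, minus strand: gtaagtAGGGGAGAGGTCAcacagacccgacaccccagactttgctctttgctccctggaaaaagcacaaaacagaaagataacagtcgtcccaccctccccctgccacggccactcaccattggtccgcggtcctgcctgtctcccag
Ucp2, chr7:100493108-100493336, plus strand: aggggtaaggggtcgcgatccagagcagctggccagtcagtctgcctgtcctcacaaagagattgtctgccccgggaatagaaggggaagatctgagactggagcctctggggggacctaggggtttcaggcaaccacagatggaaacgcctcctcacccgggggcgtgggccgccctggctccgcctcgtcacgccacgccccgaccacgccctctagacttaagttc
Fgf21, chr7:45615491-45615740, minus strand: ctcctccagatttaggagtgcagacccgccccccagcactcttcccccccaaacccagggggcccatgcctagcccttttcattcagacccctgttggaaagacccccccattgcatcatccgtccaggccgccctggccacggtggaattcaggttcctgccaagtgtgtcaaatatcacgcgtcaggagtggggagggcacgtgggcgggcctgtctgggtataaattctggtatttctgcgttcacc

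Within these windows the repeat, searched on both strands, was found before the downstream start of Creb3l3, at 81092788 to 81092800 on chromosome 10, as AGGGGAGAGGTCA with 2 mismatches. The upstream start of Creb3l3 and the starts of Ucp2 and Fgf21 held no stretch with fewer than 4 mismatches. Both windows of Aqp7, a gene with 3 counts in each library, also held it, though its sequence is not shown. They overlap and share 1 match, at 41048180 to 41048192 on chromosome 4. The downstream window held another, at 41048051 to 41048063. In all, 3 of the 6 windows had a match at 2 mismatches, against 1268 of 32851 promoters of the table (3.86%), and 0 of the 6 at 1 mismatch, against 182 (0.554%). The sequence TGACGT, the core of the element bound by CREB3L3, was found on neither strand in any of the 6 windows and in 7.51% of all promoters. These are matches of letters, and no binding was measured here.

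Angptl4 and Creb3l3 were both low in the fed library and more than 20-fold higher (Angptl4 28.4-fold, Creb3l3 20.9-fold) in the fasted one. Ucp2, already abundant in fed cells, was 2.69-fold higher, and Vnn1 stayed within 2-fold. In total 3 of the 4 measured genes were called higher and 0 lower, where 2.51% of all measured genes were higher. The genes that had been proposed as fasting-response targets were listed with earlier results of these data known, so this count is a description.

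Angptl4 (ENSMUSG00000002289, chromosome 17, 33773750 to 33781830, minus strand, GRCm38) had 36 fed and 724 fasted counts. These are levels of 5.15 CPM (3.61 to 7.13) and 144 CPM (134 to 155), and the intervals lie far apart. The log2 ratio was 4.83 (4.34 to 5.35). Only 7 of the 12026 measured genes had a larger ratio. By level, Angptl4 lay above 13.2% of the measured genes in the fed library and above 87.6% in the fasted one. No other gene of the angiopoietin-like family was measured. Angptl8, which also codes for an inhibitor of lipoprotein lipase, had 6 fed and 5 fasted counts, and Angptl6 had 11 and 7. No window of 50 bases in transcripts of Angptl4, Creb3l3, Vnn1 or Fgf21 occurs in transcripts of another gene (0% of windows).

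Creb3l3 (ENSMUSG00000035041, chromosome 10, 81084324 to 81098874, minus strand) had 56 fed and 827 fasted counts. The levels were 8.02 CPM (6.06 to 10.4) and 165 CPM (154 to 176). The log2 ratio was 4.38 (3.99 to 4.80), and 12 measured genes had a larger one. Its ratio and that of Angptl4 were not separated by counting error, since the difference of the log2 ratios was 0.45 with an interval of -0.20 to 1.11.

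All 9 genes of the CREB3 family, its relatives ATF6 and the site proteases that cut these proteins in the Golgi were measured, and Creb3l3 was the 1 called higher, with 0 lower and a list median of -0.10. The endoplasmic reticulum factor gene Creb3l2 went from 122 to 44 counts, at -0.97 (-1.51 to -0.47), just inside 2-fold. Creb3 had -0.10 (-0.41 to 0.20), Creb3l1 0.17 (-0.23 to 0.56) and Creb3l4 0.25 (-0.26 to 0.75), intervals that all include 0. The protease genes Mbtps1 and Mbtps2 had -0.22 (-0.35 to -0.09) and 0.09 (-0.16 to 0.34), and the stress sensor genes Atf6 and Atf6b had -0.11 and -0.46. Per kilobase of exon, the level of Creb3l3 went from 2.66 to 54.6 CPM. In the fed library 7 of the 8 other genes of the list stood above it on this scale and Creb3l2 (2.40) just below, while in the fasted library it stood above all 8, the next being Atf6b at 21.9.

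Of 9 listed targets of CREB3L3, 5 were measured, and 3 of these were higher and 0 lower, at a median log2 ratio of 1.24. The share called higher over all measured genes was 2.51%, at a median of -0.02. The apolipoprotein genes Apoa1, Apoa4 and Apoc2 had 2.33 (2.17 to 2.49), 1.44 (1.23 to 1.65) and 1.24 (0.78 to 1.72). Cidec, a lipid droplet protein gene, had 0.85 (-0.01 to 1.72), and the acute-phase gene Crp had 0.66, both with intervals that include 0. The apolipoprotein gene Apoa5, the iron hormone gene Hamp, the serum amyloid gene Apcs and Fgf21 had 0 counts in both libraries. Apoa1 and Apoa4 are also markers of absorptive enterocytes, a list with a median of 1.05 in the same comparison. The summed level of all 19 enterocyte markers went from 2637 to 3532 CPM, and each of the 19 had counts in both libraries. Of these markers 17 had positive log2 ratios and 2 negative ones. Mgam, among the latter at -0.44 (-0.50 to -0.37), went from 806 to 586 CPM. The part of enterocyte content in the Creb3l3 and Angptl4 ratios was not tested. Among the 19 listed enterocyte markers the largest log2 ratio was 2.50, for the peptide transporter gene Slc15a1. That value depends on which genes were listed. Fabp2 was on both the enterocyte and the PPAR target list, whereas Fabp1, at 4.78 (4.58 to 4.99), was on the latter only.

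**Figure D1:**
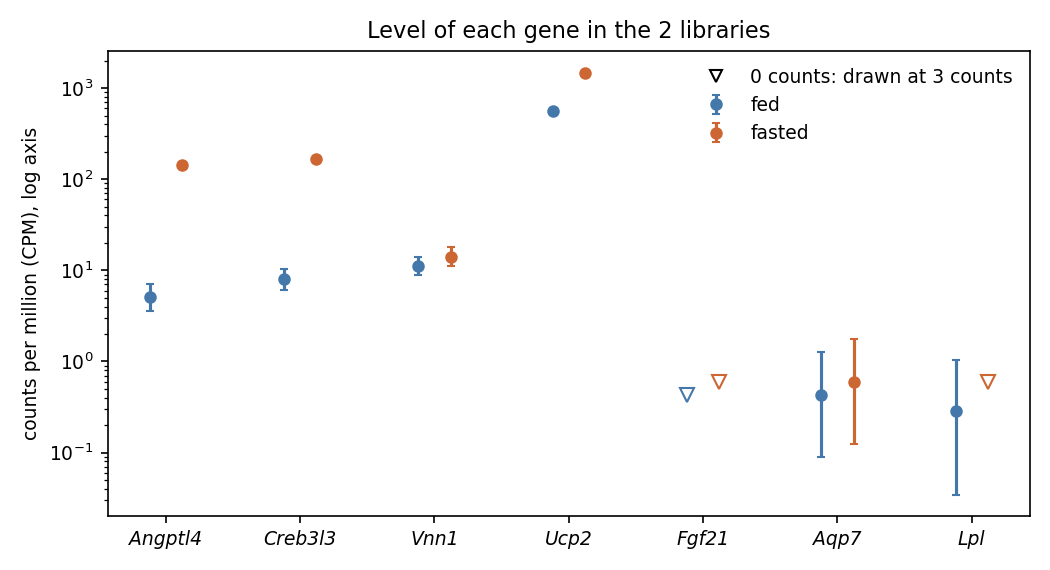
CPM on a log axis for the 7 genes in the fed (blue) and fasted (orange) library, with exact 95% Poisson intervals, some smaller than the points; open triangles stand for 0 counts and are drawn at the level of 3 counts. Angptl4 went from 5.15 to 144 CPM and Creb3l3 from 8.02 to 165, while the intervals of Vnn1 overlap and Fgf21, Aqp7 and Lpl lie at the detection limit.

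Ucp2 (ENSMUSG00000033685, chromosome 7, 100493337 to 100502020, plus strand) was the most abundant of the 7 genes in both libraries, with 3876 fed and 7388 fasted counts. The levels were 555 CPM (538 to 573) and 1472 CPM (1438 to 1506). The log2 ratio was 1.43 (1.37 to 1.48), and 1.22% of the measured genes had a larger one. It passed the 2-fold rule but not a 3-fold one. The 3′ end of Ucp2 overlaps Dnajb13 on the opposite strand, a gene with 9 counts in either library, and 3.53% of the windows of 50 bases in Ucp2 transcripts also occur in transcripts of other genes, all in those of Dnajb13. Its neighbour and relative Ucp3 had 1 count in each library and Ucp1, the uncoupler of brown fat, had 1 and 0. Of the mitochondrial carriers nearest to the uncoupling proteins, Slc25a30 had 0.93 (0.29 to 1.59), and Slc25a14 and Slc25a27 had -0.40 (-1.23 to 0.41) and -0.40 (-0.92 to 0.11). Ucp2 was thus the 1 of 4 measured family genes called higher, and 0 were lower.

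Vnn1 (ENSMUSG00000037440, chromosome 10, 23894688 to 23905343, plus strand) had 78 fed and 71 fasted counts. The levels were 11.2 CPM (8.83 to 13.9) and 14.1 CPM (11.0 to 17.8), and the intervals overlap. The log2 ratio of 0.36 had an interval of -0.12 to 0.84, which includes no difference and ends below 2-fold. The difference from the other measured genes was larger than counting error, with 4.46 (3.76 to 5.18) between the log2 ratios of Angptl4 and Vnn1 and 1.07 (0.58 to 1.55) between those of Ucp2 and Vnn1. The related gene Vnn3 had 1 count in each library.

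Pantothenic acid freed by vanins is the precursor of coenzyme A, and 13 of 15 listed genes of the vanins and of coenzyme A synthesis, transport and breakdown were measured, with 0 higher and 0 lower and a median log2 ratio of 0.28. The largest ratio was 0.70 (0.58 to 0.82) for the kinase gene Pank3, which starts coenzyme A synthesis, and the lowest was -0.38 (-0.63 to -0.14) for Pank4. Pank1 and Pank2 had -0.15 (-0.37 to 0.07) and -0.36 (-0.55 to -0.16). Coasy, which completes the synthesis, had 0.30 (0.09 to 0.52).

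**Figure D2:**
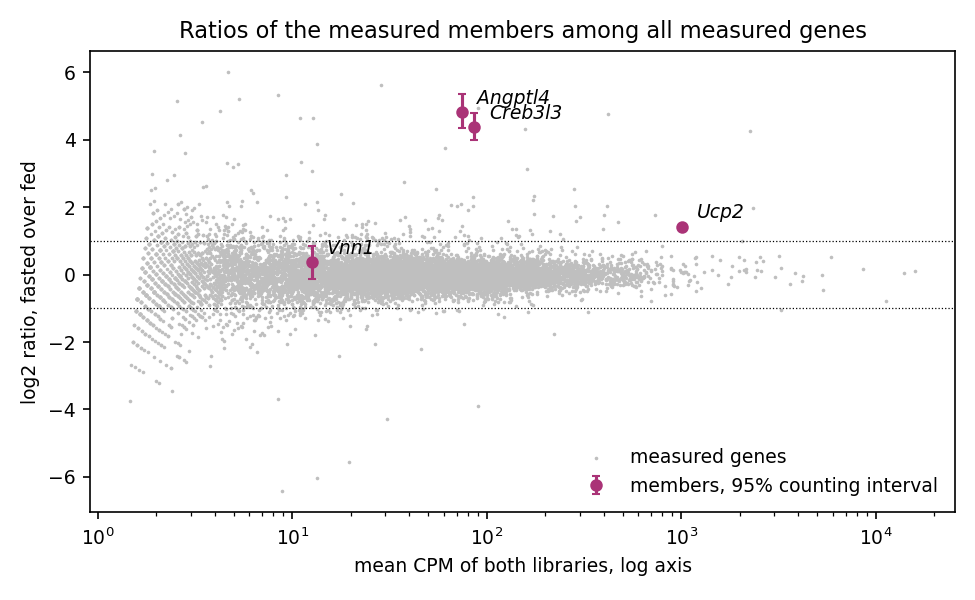
Log2 ratio of fasted over fed against the mean CPM of both libraries on a log axis, for 12026 measured genes (grey) and the 4 measured genes of interest (purple, with 95% counting intervals); dotted lines mark 2-fold. Angptl4 and Creb3l3 lie at 4.83 and 4.38, Ucp2 at 1.43 among the most abundant genes, and Vnn1 at 0.36 inside the cloud.

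Fgf21 (ENSMUSG00000030827, chromosome 7, 45613886 to 45615490, minus strand) had 0 counts in both libraries. The floor of 3 counts equals 0.429 CPM in fed and 0.598 CPM in fasted cells, the exact 95% upper limits are 0.528 and 0.735 CPM, and no ratio can be given. Its coreceptor gene Klb had 2 and 1 counts, and Fgfr1, the receptor gene through which FGF21 chiefly signals, had 3 and 5. The receptor genes Fgfr2, Fgfr3 and Fgfr4 were measured and had log2 ratios of -0.15 (-0.35 to 0.05), -0.08 (-0.27 to 0.11) and -0.04 (-0.25 to 0.17), so that 0 of the 3 measured genes of this list were higher or lower. The hormone gene Fgf15 had 0 and 1 counts.

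Fgf21 is also a target of ATF4, a factor of the amino acid and stress response, and 0 of 8 measured genes of a list of Atf4 and its targets were higher or lower, with a median of -0.17. Atf4 itself had 0.0028 (-0.12 to 0.13), and the largest ratio was 0.74 (0.62 to 0.86), for Ddit4, an inhibitor of mTORC1 signalling.

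Aqp7 (ENSMUSG00000028427, chromosome 4, 41033074 to 41048139, minus strand) had 3 counts in each library, or 0.429 CPM (0.0886 to 1.26) fed and 0.598 CPM (0.123 to 1.75) fasted. Both values sit at the floor, and a difference was not detectable at this depth. Its glycerol-conducting relatives Aqp3 and Aqp9 had 2 and 5 counts, and 0 in both libraries. The water channel genes Aqp1, Aqp4 and Aqp11 were the measured aquaporins, and 0 of the 3 were higher or lower. Aqp1 had 4023 and 5106 counts, giving 0.84 (0.78 to 0.90), Aqp11 had 0.65 (0.35 to 0.94) and Aqp4 had 0.07 (-0.02 to 0.17).

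Among genes that make or use glycerol, 2 of 8 measured were higher and 0 lower, at a median of 0.36, beside 2.51% higher over all measured genes. The monoacylglycerol lipase gene Mgll had 5.64 (4.64 to 6.86), from 8 and 282 counts, and the hormone-sensitive lipase gene Lipe had 1.19 (0.82 to 1.57). Mgll passed the count filter only through its fasted counts. The glycerol kinase gene Gk had 0.31 (-0.05 to 0.67), and the glycerol phosphate dehydrogenase gene Gpd1 had 0.58 (0.44 to 0.71). The triglyceride lipase gene Pnpla2, its activator Abhd5 and Gpd1l and Gpd2 also stayed within 2-fold, at 0.17, -0.10, 0.41 and -0.17.

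Lpl (ENSMUSG00000015568, chromosome 8, 68880491 to 68907448, plus strand) had 2 fed and 0 fasted counts, both at or below the floor, so no ratio is given. The fed value equalled 0.286 CPM (0.0347 to 1.03). Lpl is made by fat, muscle and macrophages. Of the adipocyte markers Adipoq, Lep, Plin1, Cfd, Retn and Fabp4 had 0 counts in both libraries, and Lipe, the 1 of 7 with counts, is also made by other cells. The summed level of the 6 endothelial markers was 1.00 CPM fed and 1.79 CPM fasted, and that of the 8 markers of stroma and muscle was 1.00 and 0.398 CPM. Of 9 immune markers 3 were measured, 0 were higher and 1 was lower (Cd68, 25 fed and 6 fasted counts). The other measured ones were the myeloid gene Itgam, with 62 and 26 counts, and Cd74, the invariant chain of MHC class II, with 7196 and 4014, which makes up most of the summed immune level of 1043 CPM fed and 806 CPM fasted. The macrophage genes Csf1r and Adgre1 and the B cell gene Cd79a had 0 counts in both libraries. The remaining immune markers were too low to be measured, with 4 fed and 0 fasted counts of Lyz2, 1 and 0 of Ptprc, and 0 and 2 of Cd3e. The part of such cells in the counts of Lpl was not tested.

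Of 17 listed partners of lipoprotein lipase 13 were measured. Of these, 4 were higher and 0 lower, at a median of 0.41, beside 2.51% higher over all measured genes. Those higher were the fatty acid transporter gene Cd36, at 3.31 (2.06 to 4.83) from 6 and 42 counts, Apoc3, an apolipoprotein that inhibits the lipase, with 1.64 (0.99 to 2.33), Apoc2, its activator, with 1.24 (0.78 to 1.72), and the convertase gene Pcsk6, with 21 and 41 counts and 1.46 (0.67 to 2.30). Cd36 passed the count filter only through its fasted counts. It is also on the list of other PPAR targets, and Apoc2 is also on that of CREB3L3 targets. The maturation factor genes Lmf1, Lmf2 and Sel1l had 0.41 (0.12 to 0.69), -0.07 (-0.27 to 0.13) and 0.05 (-0.09 to 0.19). Gpihbp1, which holds the lipase on capillaries, had 0 counts in both libraries. Thus the transcript of the secreted inhibitor Angptl4 reached 144 CPM in the fasted library, where its target enzyme had no count.

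**Figure D3:**
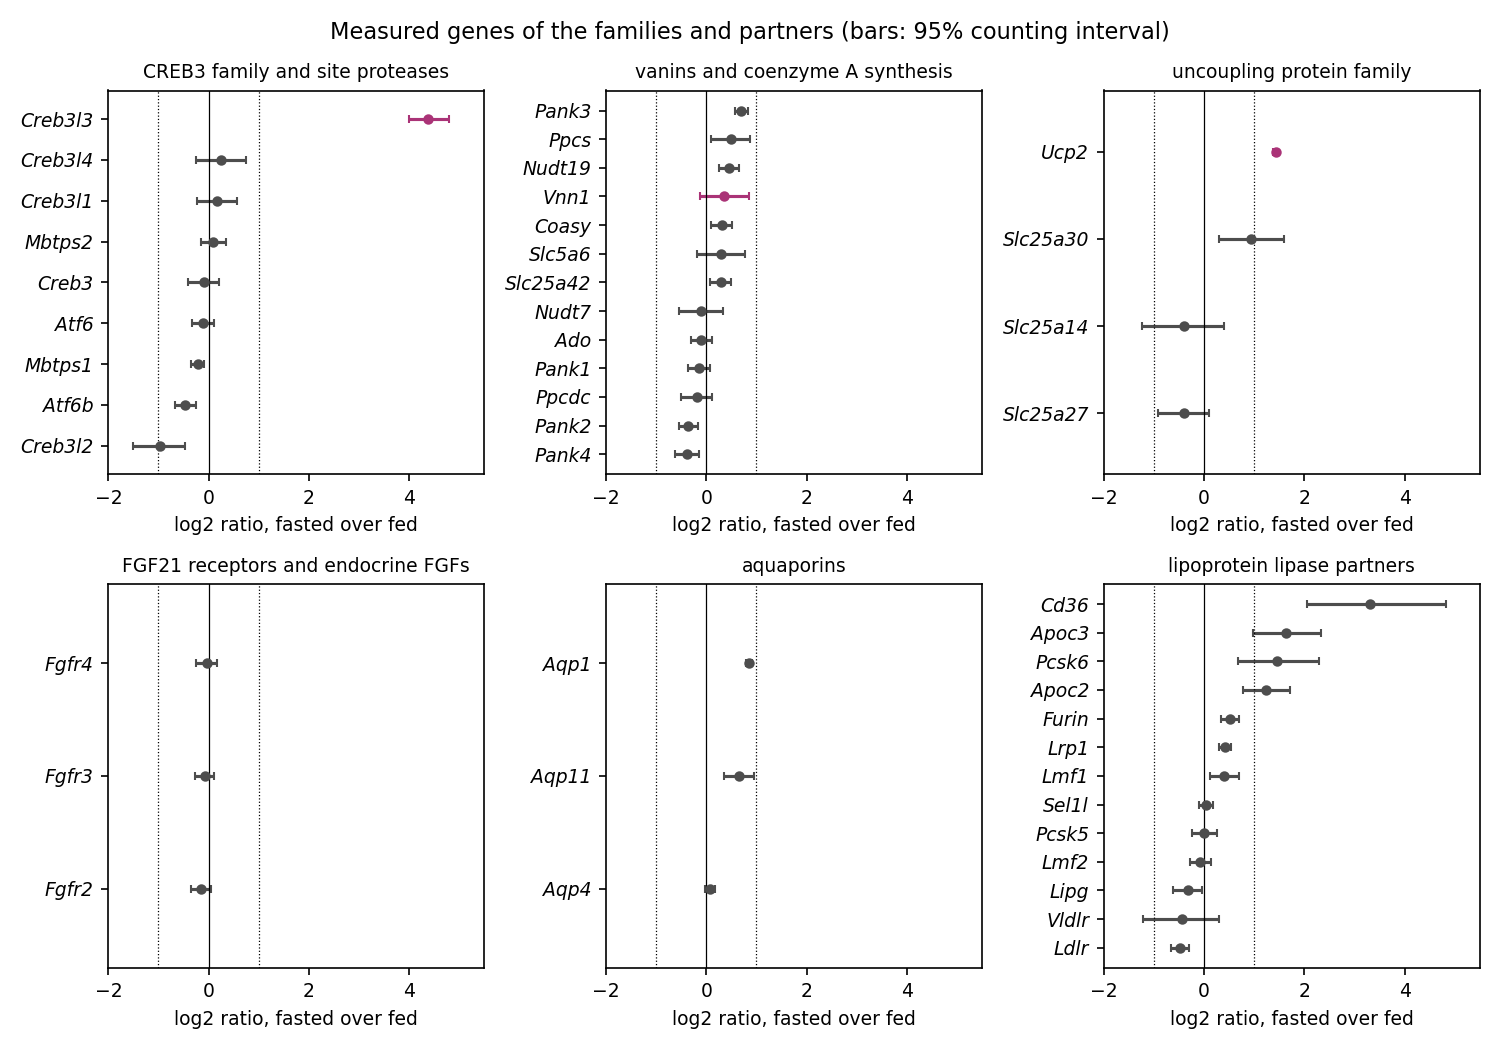
Log2 ratio of fasted over fed (points) with 95% counting intervals for all measured genes of 6 lists, those of the 7 genes of interest that were measured and listed there in purple; dotted lines mark 2-fold. The interval of Creb3l3, at 4.38, lies above those of the 8 other genes of its panel, and 0 of 3 measured aquaporin and 0 of 3 measured FGF receptor genes lie past 2-fold.

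Levels can be compared between genes per kilobase of exon. In the fed library Ucp2 stood at 79.4, Vnn1 at 4.62, Creb3l3 at 2.66 and Angptl4 at 1.46 CPM per kilobase, followed by Aqp7 (0.152), Lpl (0.0273) and Fgf21 (0). The counting intervals of Creb3l3 and Angptl4 overlapped, as did those of neighbours among the last 3. In the fasted library the order was Ucp2 at 211, Creb3l3 at 54.6, Angptl4 at 40.7, Vnn1 at 5.85 and Aqp7 at 0.211 CPM per kilobase, with Fgf21 and Lpl at 0, and neighbours among the first 5 did not overlap. Vnn1 thus ranked below Ucp2 alone in fed cells and below Ucp2, Creb3l3 and Angptl4 in fasted cells. With the length of the longest transcript in place of the exon union, the level of Ucp2 was 139 and 369 CPM per kilobase. That of Creb3l3 was then 3.49 and 71.8, nearer to Vnn1 in fed cells, which stayed at 4.62. Overlap of intervals was assessed for the exon union only.

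Other listed PPAR targets outside oxidation were higher in 8 of 15 measured cases and lower in 0, at a median of 1.28. Over all measured genes 2.51% were higher. All 15 ratios were positive, as were 5756 of 12026 over all measured genes. Fabp2, 1 of the 8 at 1.71 (1.60 to 1.82), is also an enterocyte marker, and 12 of those 19 markers were higher. Pdk4, a kinase that shuts off pyruvate dehydrogenase, stood at 4.96 (4.50 to 5.45), and Fabp1, which encodes a carrier of fatty acids, at 4.78 (4.58 to 4.99), both close to Angptl4. Cyp4a10, a fatty acid hydroxylase gene, had 0 fed and 85 fasted counts. With the floor of 3 counts in place of the 0, its log2 ratio was 5.32 (40.0-fold). The lower bound of its counting interval was smaller, at a log2 ratio of 4.99. Near-identical Cyp4a genes may share its reads. Mgll and Cd36, given above, are also on this list. Cyp4a10, Cd36 and Mgll, with 0, 6 and 8 fed counts, passed the count filter only through the fasted library, where they were high. Their part in the 8 higher genes and in the positive ratios is a description. The lipid droplet coat gene Plin2, at 0.75 (0.60 to 0.90), and Txnip, an inhibitor of thioredoxin, at 0.16 (0.10 to 0.23), were within 2-fold like Vnn1. Fabp4, Cyp4a14 and Fitm1 had 0 counts in both libraries, as had Fgf21.

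The receptor genes were not among those called. Of 10 measured receptors and coregulators 0 were higher or lower, with a median of 0.10. Ppara had 0.75 (0.44 to 1.07), Ppard -0.72 (-0.89 to -0.56) and Pparg 0.39 (-0.19 to 0.97). Per kilobase of exon, the level of Ppard was 19.5 fed and 11.6 fasted CPM, and that of Ppara 5.82 and 9.66.

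Angptl4 is also known to be induced by glucocorticoids and by hypoxia, so genes of both responses were listed. Over all measured genes 2.51% were called higher. Of 9 measured genes of the glucocorticoid list, the receptor gene among them, 5 were higher and 0 lower, at a median of 1.14. Among them Zbtb16 had 4.64 (3.56 to 5.99) from 7 and 124 counts, Fkbp5, a chaperone of the receptor, had 1.90 (1.69 to 2.13), Klf15 had 1.32 (0.28 to 2.42), and Sult1d1 had 1.19 (1.06 to 1.33). The kinase gene Sgk1 had 1.14 (0.86 to 1.42). Zbtb16 passed the count filter only through its fasted counts. The receptor gene Nr3c1 had -0.18 (-0.28 to -0.07). Klf9 had -0.34 (-0.60 to -0.07), Tsc22d3 had 0.69 (0.45 to 0.94) and Per1 had 0.81 (0.59 to 1.03), all with ratios within 2-fold.

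Of 7 measured hypoxia-responsive genes 2 were higher and 1 was lower, beside 2.51% higher and 1.91% lower over all measured genes. The ratios ran from -1.04 to 1.68 with a median of -0.02, beside -0.02 over all measured genes. Ndrg1 had 1.68 (1.43 to 1.94) and the lipase inhibitor gene Hilpda, also a PPAR target, had 1.28 (0.76 to 1.81). Pfkfb3, a regulator of glycolysis, was lower at -1.04 (-2.18 to -0.02), from 32 and 11 counts, a call that ended under upper-quartile scaling and after correction for exon length. The growth factor gene Vegfa and the glucose transporter gene Slc2a1 had -0.33 (-0.51 to -0.15) and -0.54 (-0.90 to -0.20), and Car9 had -0.02 (-0.19 to 0.15).

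**Figure D4:**
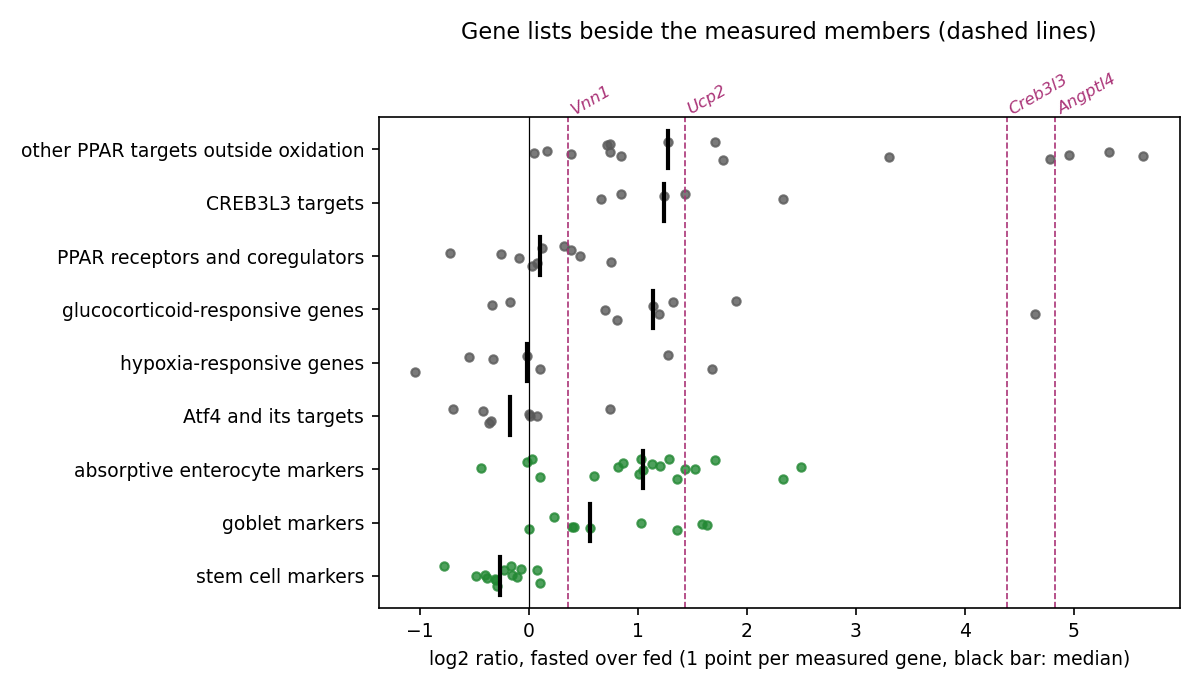
Log2 ratio of fasted over fed for each measured gene of 9 lists (points, cell type markers in green). Black bars are list medians, and dashed lines are the 4 measured genes of interest. Cyp4a10 is drawn with 3 counts in place of its 0 fed counts. Creb3l3 lies at 4.38, Angptl4 at 4.83 and Ucp2 at 1.43, and the highest of the 19 listed enterocyte markers is at 2.50. Fabp1 (4.78) is drawn among the PPAR targets only, and the part of enterocyte content was not tested.

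The genes of most similar ratio were found by the difference of log2 ratios, over 2 libraries, among protein-coding genes of at least 5 CPM. For Angptl4 these were Fabp1, Pdk4 and Zbtb16, within 0.18 of it. For Creb3l3 they included the metallothionein gene Mt2 at 4.33 (4.05 to 4.63) and the mitochondrial carrier gene Slc25a34 at 4.64 (3.47 to 6.12). For Ucp2 they were Papln (1.42), Apoa4 (1.44) and Cmbl (1.44). For Vnn1, whose ratio is shared by many genes, they were Dusp12, Ctdspl and L1cam, all at 0.36. With 2 libraries a similar ratio is a single matching number.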

How the data were processed

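RNA of GFP-high intestinal stem cells was sequenced in 2 libraries, 1 fed and 1 fasted. The deposited counts per Ensembl gene are whole numbers and were not normalised by the authors. A second deposited file, of normalised values per the file headers, holds a signal equal to each count divided by 1 factor per library (1.19 fed, 0.842 fasted, 100% of values within 0.006). FastQC, STAR, HTSeq and DESeq are named per the submitters' processing notes, with the builds GRCm38 and mm10. Versions, annotation and strand setting are not given here, so overlapping genes on opposite strands cannot be told apart. Cells were sorted into Trizol, and libraries were made with an Illumina TruSeq RNA kit, per the labels' protocols.

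Of 45706 gene IDs 45143 matched a symbol of GENCODE M21 (GRCm38), which gave positions and exon lengths. A gene was called measured from a mean of 1 CPM and 20 counts in sum. A gene near 0 in 1 library could thus pass through the other, as Cyp4a10, Cd36, Mgll and Zbtb16 did through the fasted one. Ratios were taken after median-of-ratios scaling, with exact 95% Clopper-Pearson intervals, and levels carry exact Poisson intervals. Intervals and the floor of 3 counts cover counting error only. The procedure was tested on data simulated with counting error alone, which cannot show how it behaves under variation between mice or libraries. Whole gene bodies were not searched for motifs. Alternatives were scaling by TMM (edgeR 4.0.16), upper quartile or library total, the deposited normalised values, a correction for exon length (running median over 1001 genes), a pseudocount of 1, other count filters, other fold thresholds and 1 or 3 mismatches (0 mismatches was added after the data were seen). A count test on the reads recovered from the normalised table was not run, since there is 1 library per group.

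The 7 genes, the 14 further lists and the 10 marker lists were chosen with earlier results of these data known. Genes named beside the 7 were the called genes of each list (the 4 largest where more were called), measured genes of lists under 12 genes, Ppara, Ppard, Pparg, and the 3 nearest in ratio. Some genes under these rules are not reported here. Any further gene named with its values was chosen after they were seen, including list genes too low to be measured.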

Additional observations from a re-analysis of the deposited data

How the results depend on the processing

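No paired analysis was possible because each group has 1 library. Leaving out a library was not possible for the same reason. Of the 7 genes, the same number (3 higher, 0 lower) was called under 9 of the alternatives that bear on the count, and 2 at 3-fold, where Ucp2 did not pass. The log2 ratio ranged from 4.79 to 4.85 for Angptl4, 4.34 to 4.41 for Creb3l3 and 0.28 to 0.39 for Vnn1, and that of Ucp2 from 1.41 to 1.499, the last after correction for exon length and outside its counting interval.

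Over all measured genes the counts of 302 higher and 230 lower became 614 and 607 at 1.5-fold. They were 124 and 88 under the 3-fold rule, 176 and 111 at 5 CPM, and 103 and 36 with the interval bound itself past 2-fold. The median of all genes turned to 0.0061 under upper-quartile scaling.

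At 1.5-fold, genes called higher became 1 for vanins and coenzyme A genes, 1 for PPAR receptors, 1 for Atf4 and its targets, 2 for uncoupling proteins and 2 for aquaporins, and genes called lower became 1 for the CREB3 family and 1 for PPAR receptors. At 3-fold, genes called higher became 2 for lipase partners, 1 for CREB3L3 targets, 0 for uncoupling proteins, 1 for glycerol genes, 2 for glucocorticoid-responsive and 1 for hypoxia-responsive genes. With the interval bound at 2-fold they became 1 for lipase partners, 1 for glycerol genes, 3 for glucocorticoid-responsive and 1 for hypoxia-responsive genes. CREB3L3 targets called higher were then 2 and other PPAR targets 7. Other PPAR targets called higher were 11 at 1.5-fold and 7 at 3-fold, and glucocorticoid-responsive genes 7 at 1.5-fold. At 5 CPM genes called higher became 3 for lipase partners, 4 for glucocorticoid-responsive genes and 7 for other PPAR targets. Without the filter they became 3 for glycerol genes and 10 for other PPAR targets. The 1 lower hypoxia-responsive gene became 0 under upper-quartile scaling, length correction, 5 CPM, 3-fold and the 2-fold bound.

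List medians moved after length correction to 0.56 for lipase partners, 1.06 for CREB3L3 targets, 0.75 for aquaporins and 1.10 for other PPAR targets. At 5 CPM they were 0.23 for lipase partners, 1.44 for CREB3L3 targets, 0.93 for uncoupling proteins, 0.97 for glucocorticoid-responsive genes, 0.0028 for Atf4 and its targets and 0.044 for hypoxia-responsive genes, the signs of the ATF4 and hypoxia lists being turned. Without the filter they were 0.84 for aquaporins, 1.49 for other PPAR targets, 0.23 for the angiopoietin-like family, -0.35 for Atf4 and its targets, 1.03 for glucocorticoid-responsive and 0.044 for hypoxia-responsive genes, and upper-quartile scaling gave 0.0074 for the hypoxia list. Fewer or more genes enter under the filters. Why single medians moved was not tested. Depth limits Fgf21, Aqp7 and Lpl, whose floor of 3 counts is 0.429 CPM (fed) and 0.598 CPM (fasted).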

Other observations

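The protein-coding genes next to Angptl4 and Creb3l3, looked up after the values were seen, did not share their ratios. Angptl4 lies 13220 bases from Rab11b, which had a log2 ratio of -0.14 (-0.41 to 0.14), and 28689 bases from Kank3, which had 0.30 (-0.64 to 1.23). Creb3l3 lies 1765 bases from Thop1, with 0.24 (0.04 to 0.44), and 7041 bases from Map2k2, with 0.33 (0.21 to 0.45). Vnn1 lies between Vnn3, with 1 count in each library, and Taar1, with 0. Ucp2 lies 6905 bases from Ucp3, with 1 count in each library, and 35051 bases from Coa4, with 0.16 (-0.25 to 0.57). Beside Fgf21, which had 0 counts, Bcat2 had 332 and 245 counts and Fut1, 1799 bases away, had 2 and 6.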
